A study of Mus musculus with 12 samples.

Results

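The spleen of mice that lack Sirt6 was compared with the spleen of wild type littermates at 21 days of age, on the 2 arrays labelled 21 day spleen out of 12 in the series. Each array carried RNA of a SIRT6 null spleen in the red dye (Cy5) and RNA of a wild type pool of 3 littermates in the green dye (Cy3), and the ratio of the dyes was deposited. The spleens bore the numbers 6 and 11, which serve here as the replicate numbers. The other arrays held knockout against wild type tissue too: liver at 21 days, and thymus, spleen, skin and liver at 29 days, with 2 arrays of each. The labels state no strain, sex or kind of null allele, and they do not state whether both arrays shared 1 wild type pool.

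Members are all genes of the table: each array was centred on its median, probes of a gene were averaged, and 11746 of 14654 named genes had a value on both spleen arrays. Of these, 11745 also had enough values on the other arrays to be tested. Every value below is the log2 of knockout RNA over wild type RNA; -1 stands for 2-fold less RNA in the knockout and 1 for 2-fold more, relative to the median probe of that array. The table holds ratios and no signal, so the level of a spleen marker could not be checked against the tissue label, and dim spots could not be set aside. Every array had the dyes the same way round, so a probe's own preference for a dye adds to its ratio, and the wild type pool enters as 1 control without a spread of its own.

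Sirt6 is an NAD-dependent deacylase of chromatin that removes acetyl groups from histone H3, and it is known for roles in DNA repair, in glucose and lipid metabolism and in restraining NF-kB target genes. Mice without it are small and die in the weeks after birth, with a loss of lymphocytes among their defects. The spleen filters blood in its red pulp, where macrophages remove aged red cells, and holds B cells and T cells in its white pulp. In young mice its red pulp also makes red cells: progenitors driven by the transcription factors GATA1, TAL1 and KLF1 divide several times while they build up globin, heme and the red cell membrane. In a whole spleen, fewer cells of a type and less RNA per cell cannot be told apart.

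Sirt6 itself was read by 2 probes, numbered 4451 and 9711. Probe 4451 gave -1.66 on replicate 6 and -0.91 on replicate 11. Probe 9711 gave -2.92 on replicate 6 and 0.77 on replicate 11. Both were low on replicate 6, and on replicate 11 they disagreed in sign. The mean over probes and arrays was -1.18 (SE 0.50, n = 2, adjusted p = 0.732 by limma), and since no source used here places the probes relative to the deletion, these ratios do not check the genotype. Eif2s3y, a Y-linked translation factor gene, was at -8.00 on replicate 6 and -5.04 on replicate 11. Kdm5d, a Y-linked histone demethylase gene, was at 0.10 and -2.05, so it differed from Eif2s3y on replicate 6. Uty, another Y-linked demethylase gene, was at 0.77 and -0.62 by probe 23381 and at 2.35 on replicate 11 by probe 38634. Probe 23381 did not follow Eif2s3y elsewhere: on the 29-day arrays numbered 2 it lay between -0.003 and 0.27, and Eif2s3y between 3.35 and 5.08. By Kdm5d on replicate 6 and Uty probe 38634 on replicate 11, the Y-linked genes disagreed on both arrays. Zfy1 and Zfy2, Y-linked zinc finger genes, lay between -0.31 and 0.34 on both arrays. No label states whether the animals were male or female, and the part of a sex difference between the channels in the results was not tested.

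The 2 arrays agreed poorly with each other. Replicate 6 lacked a value at 10155 of 38784 probes and its deposited ratios had an SD of 1.14, against 1540 probes and 0.757 on replicate 11; on the 29-day arrays 339 to 484 values were missing and the SD was 0.308 to 0.657. Across the features measured on both spleen arrays the correlation was 0.117 (Pearson) and 0.158 (Spearman), over probes and genes that are not independent replicates. The scatter of the 2 arrays shows a cloud that runs along both axes, with large values on 1 array near 0 on the other. Because the groups differ so much in spread, each group had its own weight in the fit, which was 0.219 for 21-day spleen, 0.690 for 21-day liver, 0.468 for 29-day spleen and 2.23 to 2.77 for the other groups.

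**Figure D1:**
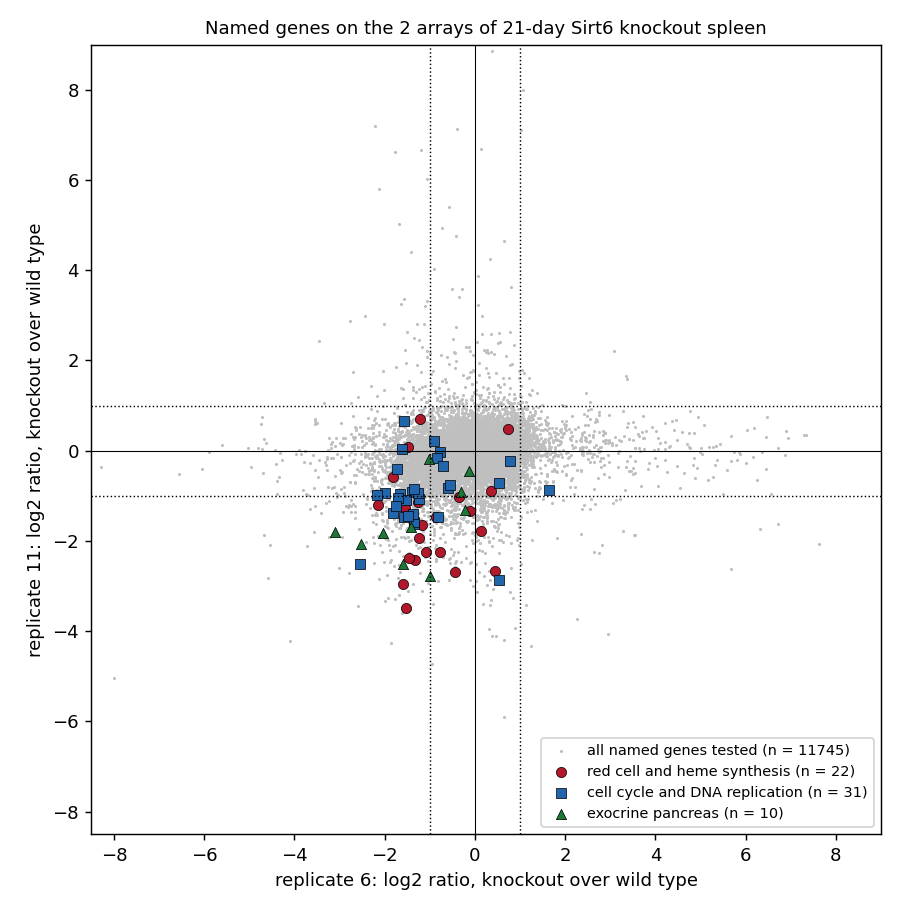
Each grey point is 1 of 11745 named genes, with its log2 ratio of knockout over wild type on replicate 6 (x axis) and on replicate 11 (y axis) of 21-day spleen; dotted lines mark 2-fold. Red cell and heme genes (circles), cell cycle and DNA replication genes (squares) and exocrine pancreas genes (triangles) gather in the quadrant that is low on both arrays.

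No gene passed the test. Limma, with Benjamini-Hochberg adjustment at 0.05, called 0 of 23136 features (0%), and 1526 had an unadjusted p under 0.05, which is 6.60% of them. The lowest adjusted p was 0.102. The fit to the 4 arrays of 21 days also called 0. The fit to the 2 spleen arrays alone called 446, of which 157 were higher (0.678%) and 289 lower (1.25%), and 22 of its 196 named genes had opposite signs on the arrays. The fit with equal weights for all groups called 180 higher (0.778%) and 579 lower (2.5%). Equal weights give 21-day spleen 1 spread in common with the tighter groups, and the 2 arrays alone leave 1 residual degree of freedom per gene, so the results below are given as values on each array, and no gene is said to have changed.

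Genes that were far from 0 on both arrays lay mostly on the low side. At or under -1 on both arrays were 293 named genes (2.49%), and at or over 1 on both were 22 (0.187%). A further 99 were beyond 2-fold in opposite directions. The medians over all named genes were -0.13 on replicate 6 and -0.03 on replicate 11, close to 0 on both. With the arrays scaled to equal spread the counts were 31 and 4.

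Red cell genes were low on both arrays. Of 22 genes in the list 18 were on the array and 14 had both values. Of the 14, 10 were below 0 on both arrays (71.4%, against 31.5% of all named genes) and none was above 0 on both. At or under -1 on both were 5, which is 35.7% against 2.49% of all named genes. The median of the 14 was -1.18, with -1.07 on replicate 6 and -1.40 on replicate 11, against -0.08 over all named genes. The list was chosen with earlier results of these data known. None of its members passed the limma test across all features.

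Among the regulators of red cell formation, Gata1 was at -1.27 on replicate 6 and -1.13 on replicate 11 (mean -1.20, SE 0.56, adjusted p = 0.774). Tal1, its partner in the progenitor and the lowest member of the list of haematopoietic progenitor genes, was at -1.66 and -2.70 (mean -2.18, SE 0.90, adjusted p = 0.718). Both regulators were low on both arrays, to a similar degree for Gata1 and more on replicate 11 for Tal1. Klf1, the factor that switches on adult beta globin, had a value on replicate 11 alone, of -2.06, as did Gfi1b, a repressor needed for red cells and platelets, at -1.19. Epor, the erythropoietin receptor, was at -0.11 on replicate 6 and -1.33 on replicate 11, and Tfrc, the transferrin receptor that brings in iron, at 0.45 and -2.67. These receptors were low on replicate 11 only.

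Among the products of the red cell, Hbb-bt, a beta globin gene, was at -1.53 on replicate 6 and -3.48 on replicate 11 (mean -2.50, SE 2.07, adjusted p = 0.917). Its neighbour in the same cluster is a near-identical copy, whose transcripts the probe can share. Hba-a1, an alpha globin gene, was measured on replicate 6 alone, at -0.38. The beta globin gene was low on both arrays, and more so on replicate 11. Kel, the Kell blood group endopeptidase of the red cell surface, was at -1.60 and -2.96 (mean -2.28, SE 0.87, adjusted p = 0.684). Rhag, the Rh-associated ammonium channel, was at -1.33 and -2.43 (mean -1.88, SE 1.22, adjusted p = 0.876), and Trim10, a ubiquitin ligase of maturing red cells, at -1.56 and -1.26. All 3 were low on both arrays, Kel and Rhag more so on replicate 11. Slc4a1, the anion exchanger band 3, was at -1.82 and -0.57, and the water channel gene Aqp1 at -0.78 and -2.24. The membrane skeleton genes Epb42 (protein 4.2) and Sptb (beta spectrin) had values on replicate 11 alone, of -2.57 and -3.10. Ank1, the ankyrin that ties the skeleton to band 3, was at -0.36 and -1.03, while Add2, an adducin, was at 0.36 and -0.88.

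Heme synthesis genes were lower still. Of 10 on the array 9 had both values. Of the 9, 7 were below 0 on both (77.8%, against 31.5% of all named genes). At or under -1 on both were 5 (55.6%, against 2.49%). The median was -1.56, that is -1.18 on replicate 6 and -1.65 on replicate 11. The gene Alas2 (1 of the 9) is shared with the red cell list. Slc25a37 (mitoferrin), which carries iron into the mitochondria of red cell precursors, was at -1.47 and -2.38 (mean -1.93, SE 0.65, adjusted p = 0.656). Slc25a38, the glycine carrier that feeds the pathway, was at -2.14 and -1.19 (mean -1.67, SE 0.86, adjusted p = 0.817). Both carriers were low on both arrays. Alas2, the first enzyme of the pathway in red cells, was at -0.87 and -1.47. Of the later enzymes, Cpox (coproporphyrinogen oxidase) was at -1.08 and -2.24, Ppox (protoporphyrinogen oxidase) at -1.18 and -1.65, and Fech (ferrochelatase), which inserts the iron, at -1.25 and -1.93. Each of these was lower on replicate 11 than on replicate 6. Uros, uroporphyrinogen synthase, was at -0.44 and -2.68, and Urod, the next enzyme, had -1.18 on replicate 11 alone. Alad, which acts directly after the first step, went the other way at 0.73 and 0.48, and Abcb10, a mitochondrial transporter, was at -1.21 and 0.70. The rest of iron handling showed no such pattern: the list of 9 had a median of 0.11, with the ferritin genes Fth1 at -0.76 and 0.06 and Ftl1 at -0.72 and -0.59.

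**Figure D2:**
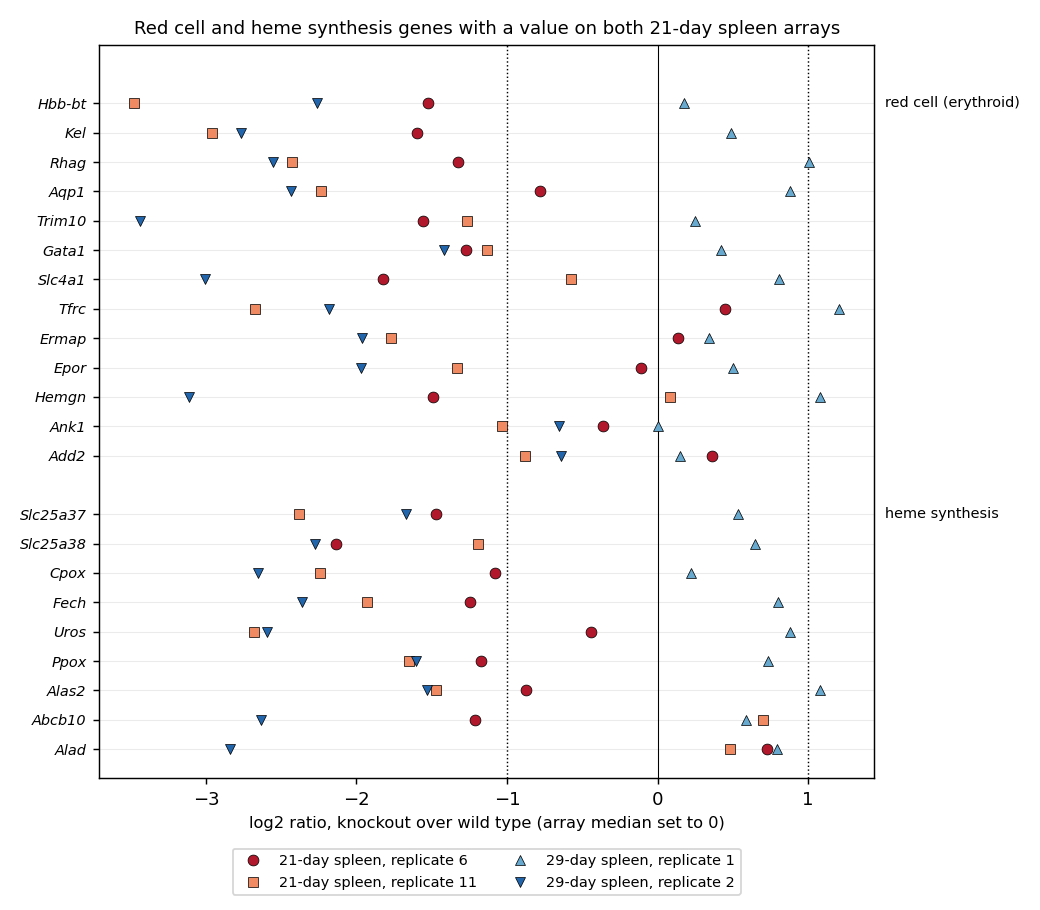
Log2 ratios of knockout over wild type (x axis) of the red cell and heme synthesis genes with a value on both 21-day arrays, 1 row per gene (Alas2, in both lists, is drawn once) and 1 symbol per spleen array; dotted lines mark 2-fold. Circles (replicate 6) and squares (replicate 11) of 21-day spleen lie mostly below 0, with medians of -1.07 and -1.40 in the red cell list, while upward triangles (29-day replicate 1) lie at or above 0 and downward triangles (29-day replicate 2) at -0.64 or less.

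The same lists split the spleen arrays of the other age. In 29-day spleen the red cell median was 0.49 on replicate 1 and -2.22 on replicate 2, and the heme median was 0.73 and -2.36. Both 21-day spleens thus lay on the side of 29-day replicate 2, at a smaller size, and 29-day replicate 1 lay apart from these 3 arrays. The Y-linked gene Eif2s3y also differed between the 29-day spleens, at 0.37 on replicate 1 and 3.88 on replicate 2. The part of sex in these values was not tested. In 21-day liver the red cell medians were -0.13 on replicate 2 and -0.41 on replicate 11. The labels of the former liver state no animal number, and the number 2 was given to it by order of deposit. The contrast of 29-day with 21-day spleen called none of these genes (0% of all features), and in it the age cannot be told apart from the set of arrays. Because the spread of a gene is estimated over all groups, arrays that disagree within any group widen its error. The 29-day spleens disagreed on these lists, and for some genes the other 29-day tissues did too. Hbb-bt was at 1.10 and -1.34 in 29-day liver, 1.46 and -0.69 in skin and 0.63 and -1.20 in thymus, replicate 1 first. Kel lay between -0.23 and 0.48 on those arrays. The share of each tissue in the error was not tested. With both 29-day spleen arrays left out, a repeat chosen after seeing the data, 0 features were called as well (1573 at an unadjusted p under 0.05).

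GATA1 binds the letters AGATAA or AGATAG, the letters TGATAA or the letters TGATAG. The promoters of the 10 red cell and heme genes at or under -1 on both arrays were searched for them on both strands, over the 250 bases before the start site (RefSeq, build GRCm38.p6). A sequence was at hand for 8 of the 10, and 4 of the 8 (50%) held at least 1 match, against 21.8% of 9497 tested genes with a promoter and 27.1% of all 27025 promoters. The 4 are shown 5' to 3' because they belong to genes low on both arrays, with the GATA letters, read on either strand, in capitals; where matches overlap they form 1 longer run.
Cpox, chr16:58669958-58670207, plus strand: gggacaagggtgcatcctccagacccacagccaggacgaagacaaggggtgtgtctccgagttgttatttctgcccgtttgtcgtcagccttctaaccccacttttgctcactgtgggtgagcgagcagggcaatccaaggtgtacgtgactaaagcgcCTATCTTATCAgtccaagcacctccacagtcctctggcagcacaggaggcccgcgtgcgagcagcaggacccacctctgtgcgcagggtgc
Kel, chr6:41704326-41704575, minus strand: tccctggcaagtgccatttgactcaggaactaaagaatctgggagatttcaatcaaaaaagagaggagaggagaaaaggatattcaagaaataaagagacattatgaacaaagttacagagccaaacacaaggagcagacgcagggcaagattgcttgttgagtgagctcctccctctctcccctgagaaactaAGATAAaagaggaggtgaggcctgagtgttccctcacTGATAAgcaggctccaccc
Rhag, chr17:40810899-40811148, plus strand: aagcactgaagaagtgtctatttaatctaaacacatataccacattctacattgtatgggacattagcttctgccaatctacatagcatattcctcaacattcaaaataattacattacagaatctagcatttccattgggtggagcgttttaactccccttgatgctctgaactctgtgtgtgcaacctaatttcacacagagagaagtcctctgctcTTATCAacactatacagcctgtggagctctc
Trim10, chr17:36869324-36869573, plus strand: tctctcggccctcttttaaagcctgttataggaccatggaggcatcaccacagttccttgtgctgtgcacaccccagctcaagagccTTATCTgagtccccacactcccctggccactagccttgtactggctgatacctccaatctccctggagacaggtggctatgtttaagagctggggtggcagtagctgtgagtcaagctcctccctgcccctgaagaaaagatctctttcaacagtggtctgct
Cpox and Kel held 2 matches each, Rhag and Trim10 1 each. A match is a description of these letters and does not show that the factor binds there. Gata1, Hbb-bt, Ppox and Slc25a38 held none in this window.

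Genes of the cell cycle were low on both arrays. Of 20 on the array 15 had both values, 12 were below 0 on both, none was above 0 on both and 6 were at or under -1 on both, with a median of -1.15, that is -1.39 on replicate 6 and -0.95 on replicate 11. None passed the limma test. Ccne2, cyclin E2, which drives entry into S phase, was at -2.56 on replicate 6 and -2.52 on replicate 11 (mean -2.54, SE 1.33, adjusted p = 0.820). E2f1, the transcription factor that induces S phase genes, was at -1.52 and -1.08 (mean -1.30, SE 0.70, adjusted p = 0.821). These genes of the start of S phase were low to a similar degree on both arrays. Of the mitotic genes, Ccnb2 (cyclin B2) was at -1.34 and -1.63, Birc5 (survivin) at -1.58 and -1.48, Tpx2, a spindle protein, at -1.36 and -1.58, and Cenpe, a kinetochore motor, at -1.23 and -1.07. Top2a, the topoisomerase of dividing cells, was at -1.39 and -0.91, and Cdk1, the mitotic kinase, at -0.60 and -0.84. The arrays differed by less than 0.5 for each of these 6 genes, but by more for other genes of the list. Bub1 was at -1.65 and -0.95, Plk1 at -1.74 and -0.395 and Nusap1 at -0.82 and -1.48. Cdc20 was at -0.78 and -0.03, and Kif23 at -1.61 and 0.04. Aurkb, the kinase of the chromosome passenger complex, was at 1.63 and -0.86, and Ube2c, which marks cyclins for destruction, at -1.58 and 0.66, so both had opposite signs.

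DNA replication genes followed with a median of -1.13 over 16 genes (-1.30 and -0.94). Of the 16, 12 were below 0 on both arrays (75.0%, against 31.5% of all named genes) and none was above 0 on both. At or under -1 on both were 5 (31.25%, against 2.49%). Mcm2, a subunit of the replicative helicase, was at -1.81 on replicate 6 and -1.38 on replicate 11 (mean -1.60, SE 0.81, adjusted p = 0.811), and Cdc6, which loads the helicase, at -1.48 and -1.44. Fen1, the flap endonuclease, was at -1.74 and -1.24, Tk1, thymidine kinase, at -1.36 and -1.41, and Rrm2, the small subunit of ribonucleotide reductase, at -1.70 and -1.04. Helicase loading, lagging strand processing and nucleotide supply were each represented among the genes low on both arrays. The other helicase subunits were nearer 0 on replicate 11: Mcm5 was at -1.99 and -0.95, Mcm7 at -0.84 and -0.16, Mcm6 at -0.91 and 0.20 and Mcm3 at 0.77 and -0.22. Pcna, the sliding clamp, disagreed most, at 0.53 and -2.86. The cell cycle and replication lists share no tested gene. On the 29-day spleens their medians were 0.36 and 0.44 on replicate 1 and -1.68 and -2.00 on replicate 2, the same split as for red cell genes, and the part of red cell precursors in these values was not tested. In 21-day liver the medians were -0.38 and -0.48 for the cell cycle and -0.64 and -0.46 for replication.

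**Figure D3:**
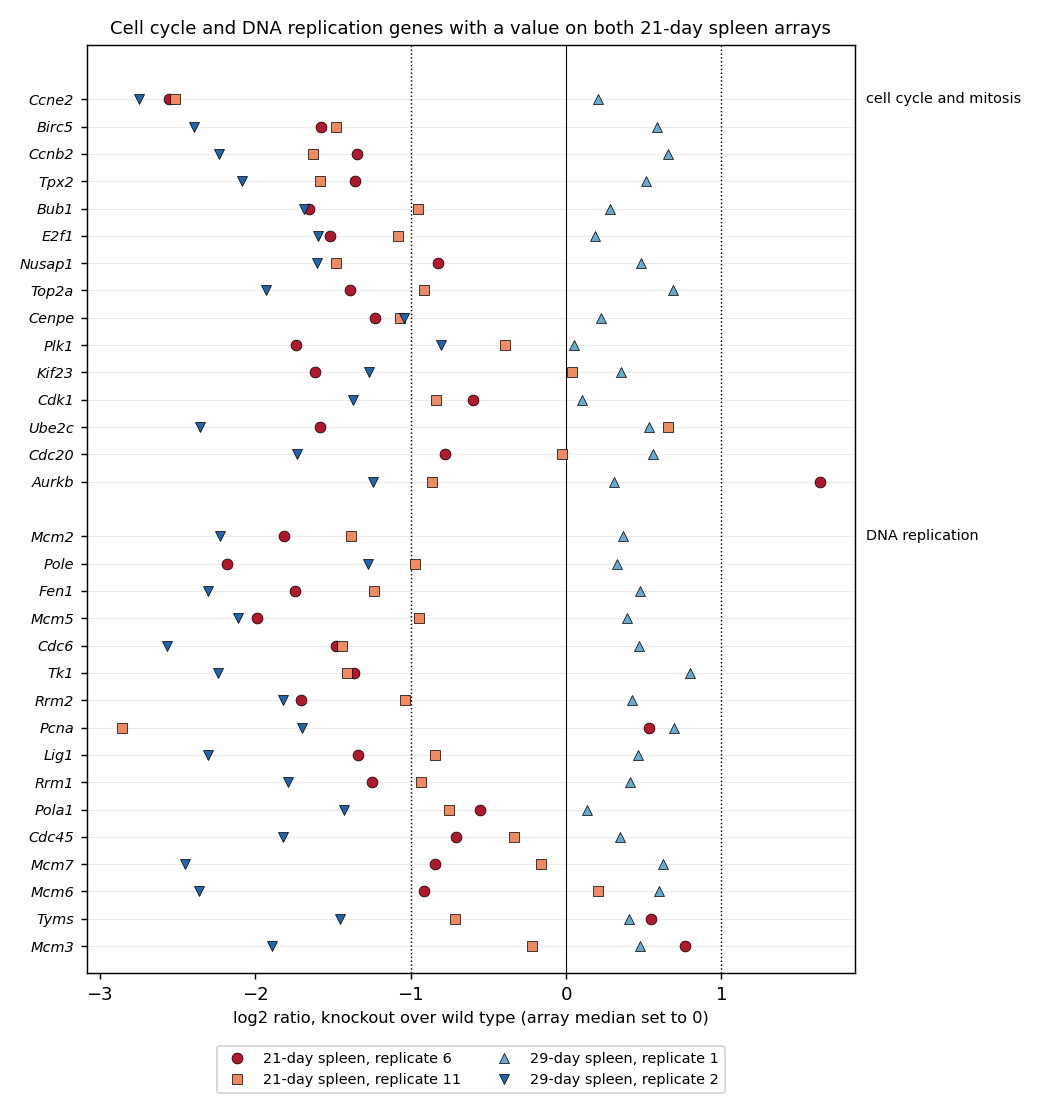
Log2 ratios of knockout over wild type (x axis) of the cell cycle and DNA replication genes with a value on both 21-day arrays, 1 row per gene and 1 symbol per spleen array; dotted lines mark 2-fold. On the 21-day arrays (circles and squares) 12 of 15 cell cycle genes and 12 of 16 replication genes are below 0 on both, and all of them are above 0 on 29-day replicate 1 (upward triangles).

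E2F factors read the letters TTTCCCGC, TTTGGCGC, TTTCGCGC or TTTGCCGC, and CCAAT is read by NF-Y. A promoter was at hand for 9 of the 11 cell cycle and replication genes at or under -1 on both arrays, and 1 of the 9 (11.1%) held an E2F match in the 250 bases before the start, against 2.87% of the tested genes with a promoter. CCAAT stood in 4 of the 9 (44.4%), against 35.9%. The promoter with the E2F letters, read on either strand and set in capitals, is that of the helicase loader Cdc6.
Cdc6, chr11:98907901-98908150, plus strand: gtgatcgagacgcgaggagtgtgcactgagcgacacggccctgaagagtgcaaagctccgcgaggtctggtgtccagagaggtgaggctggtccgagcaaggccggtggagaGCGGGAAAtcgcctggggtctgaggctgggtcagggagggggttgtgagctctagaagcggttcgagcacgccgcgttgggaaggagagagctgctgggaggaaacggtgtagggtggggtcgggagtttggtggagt

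Enzymes of the exocrine pancreas were low on both 21-day arrays and near or above 0 in the spleens of the other age. The pancreas lies beside the spleen, and its acinar cells make digestive enzymes in very large amounts. All 10 genes with both values were below 0 on both arrays, 5 were at or under -1 on both, and the median was -1.72, that is -1.22 on replicate 6 and -1.74 on replicate 11. Cel, the bile salt-activated lipase, was at -3.11 and -1.80 (mean -2.45, SE 0.52, adjusted p = 0.512). Try4, a trypsin, was at -2.52 and -2.07 (mean -2.29, SE 0.48, adjusted p = 0.515). Ctrb1, a chymotrypsinogen, was at -2.05 and -1.82 (mean -1.93, SE 0.37, adjusted p = 0.362). The 6 values lay between -3.11 and -1.80. None of the 10 genes passed over all features in the fit with group weights. In the fits set aside above, 5 of the 10 passed as lower with the 2 arrays alone and 5 with equal weights. Those fits called 1.25% and 2.5% of all features lower. In the same fits 3 and 0 red cell genes and 1 and 1 heme genes passed as lower. Of cell cycle genes 1 and 0 passed as lower, and of replication genes 0 in either fit. The reasons for setting those fits aside hold for these counts too, so they do not show that any list changed. Cela3b, an elastase, was at -1.60 and -2.52, Clps, the lipase cofactor colipase, at -1.42 and -1.68, and Reg1, an islet regeneration protein made by acinar cells, at -0.99 and -2.78. Trypsins and elastases are families of close copies, whose transcripts a probe can share.

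On the 29-day spleens the pancreas median was 0.18 on replicate 1 and 1.08 on replicate 2, and on the 21-day livers -0.14 and -0.29. The difference of 29-day from 21-day spleen was 2.63 for Ctrb1 (SE 0.45, adjusted p = 0.534), 2.56 for Cela3b (SE 0.52, adjusted p = 0.886) and 2.98 for Try4 (SE 0.58, adjusted p = 0.898). The arrays of the ages did not overlap for these 3 genes. All 3 were among those of smallest p in this contrast, a choice that favours such a gap. How many of all features had such a gap was not counted. No difference passed the test (0% of all features did). Of islet genes, a list added after Isl1 had been seen, Isl1, a transcription factor of the endocrine pancreas, was at -4.59 and -2.82 and Neurod1, another, at -2.42 and -1.17. Of the islet hormones, Gcg (glucagon) was below 0 on both arrays, at -1.14 and -0.38, while Sst (somatostatin) was at 0.80 and -0.15, Ppy (pancreatic polypeptide) at -0.28 and 0.47 and Iapp (amylin) at 0.83 and 0.85.

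Liver transcripts were low as well, less evenly. The hepatocyte list of 14 had a median of -0.58 (-0.67 and -0.50). Below 0 on both arrays were 8 (57.1%, against 31.5% of all named genes). At or under -1 on both were 3 (21.4%, against 2.49%). Alb (albumin) was at -2.65 on replicate 6 and -1.23 on replicate 11 (mean -1.94, SE 0.73, adjusted p = 0.678), and the fibrinogen genes Fgg and Fgb at -1.82 and -1.37, and at -1.15 and -1.27. On the 29-day spleens that median was -0.67 and -1.48, so the hepatocyte genes, unlike those of the pancreas, lay on the same side at both ages. Of adipocyte genes, Car3 (carbonic anhydrase 3) was at -3.23 and -1.92 and Fabp4 at -2.15 and -1.03, but Adipoq (adiponectin) at 1.01 and -1.46; the median of 9 was -0.23. How much tissue of other organs each sample held, in either channel, was not tested.

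**Figure D4:**
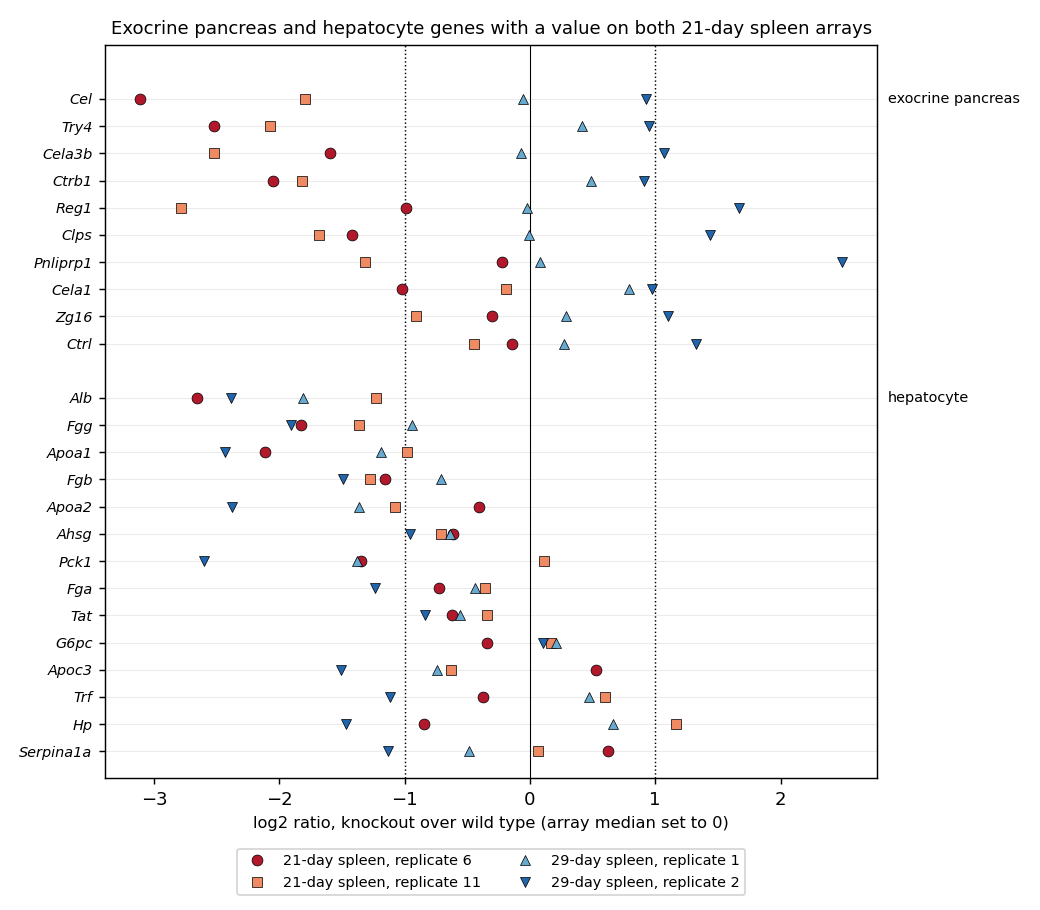
Log2 ratios of knockout over wild type (x axis) of the exocrine pancreas and hepatocyte genes with a value on both 21-day arrays, 1 row per gene and 1 symbol per spleen array; dotted lines mark 2-fold. Pancreas genes are below 0 on both 21-day arrays (circles and squares), and on the 29-day arrays (triangles) their medians are 0.18 and 1.08; Alb is below -1 on all 4.

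The lymphocyte lists did not stand apart from 0 on both arrays. B cell genes had a median of -0.77 on replicate 6 and 0.06 on replicate 11 (10 genes with both values, 3 below 0 on both), T cell genes -0.36 and 0.42 (10 genes), cytotoxic genes -0.51 and 0.28 (13 genes) and MHC class II genes -0.82 and -0.05 (5 genes). On each list replicate 6 was the lower array. Cd79b (Ig beta), which signals for the B cell receptor, was at -0.95 and -0.13, Ms4a1 (CD20) at -0.76 and 0.09, and Blnk, an adaptor of that receptor, at -0.96 and -0.75. Cd3e, of the T cell receptor complex, was at 0.74 and 0.47, and Cd3g at -2.27 and 0.51. The arrays thus gave the B cell, T cell and cytotoxic lists no common direction. The MHC class II medians were both below 0, that of replicate 11 by little. Below 0 on both arrays were 3 of the 5 MHC class II genes (60.0%) and 3 of the 10 B cell genes (30.0%), against 31.5% of all named genes. On each of these 2 lists 1 gene was above 0 on both. The chemokine gene Ccl5, of cytotoxic cells, was at 0.43 on both arrays and at -1.06 and -1.19 on the 29-day spleens (difference -1.56, SE 0.41, adjusted p = 1). In the pre-B list, Cd24a, a surface protein of immature B cells that red cell precursors carry too, was at -2.58 and -3.43 (mean -3.01, SE 1.14, adjusted p = 0.678), while Il7r, the receptor for the growth factor of pre-B cells, was at -0.09 and 0.67.

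**Figure D5:**
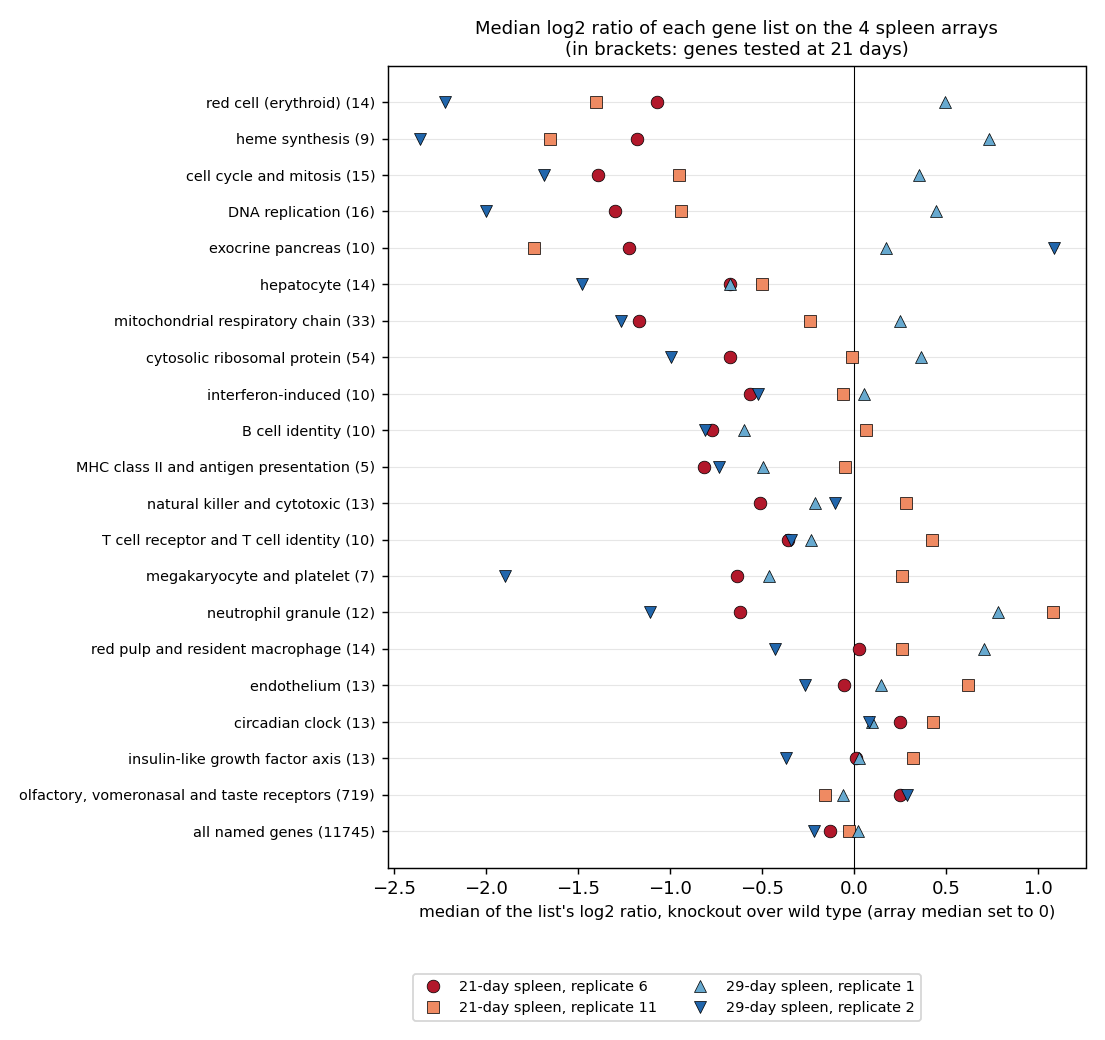
Median log2 ratio of each gene list (rows, with the number of genes that have both 21-day values in brackets) on the 4 spleen arrays. The lists of red cell, heme, cell cycle, replication and pancreas genes lie below -0.9 on both 21-day arrays. The B cell, T cell and cytotoxic lists lie on either side of 0, and the MHC class II list at -0.82 and -0.05. The median over all named genes is -0.13 on replicate 6 and -0.03 on replicate 11.

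Myeloid genes were uneven. S100a9, a calcium-binding alarmin of neutrophils, was at 3.35 on replicate 6 and 1.66 on replicate 11 (mean 2.50, SE 2.01, adjusted p = 0.916), and its partner S100a8 had 1.65 on replicate 11 alone. Lcn2, which binds bacterial siderophores, was at 0.70 and 2.10, and Mpo (myeloperoxidase) at 0.63 and 1.60. Yet other granule genes had opposite signs, with Camp (cathelicidin) at -0.90 and 1.31 and Ltf (lactoferrin) at -0.81 and 0.95, and the list's medians were -0.62 and 1.08. Of the list's 12 genes with both values, 4 were above 0 on both arrays, 2 were below 0 on both and 6 had opposite signs. Cd14, the lipopolysaccharide co-receptor of monocytes, was at 1.05 and 1.79, the highest of 5 monocyte genes whose median was 0.07, and Cx3cr1, a chemokine receptor of the same list, was at 0.04 and -0.76. Red pulp and resident macrophage genes had medians of 0.03 and 0.26, with Hmox1, which breaks down heme, at 0.52 and 0.50, Vcam1 at 0.47 and 0.71 and Mrc1, the mannose receptor, at 0.49 and 1.10. Of the 14 macrophage genes, 6 were above 0 on both arrays, 1 was below 0 on both and 7 had opposite signs; Cd163, the hemoglobin scavenger receptor, was at -1.59 and -0.22 and Adgre1, which encodes F4/80, at -0.50 and 0.20. Platelet genes had medians of -0.63 and 0.26.

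Pathways in which Sirt6 is known to act gave list medians between -0.37 and 0.12, with some members much farther from 0. Of 14 measured NF-kB targets, 6 were above 0 and 3 below 0 on both arrays, with a median of 0.12; the chemokine gene Cxcl2 was highest, at 2.86 and 0.41, and Nfkbia, the inhibitor that NF-kB induces, was at 0.49 and 0.30. Glycolysis and hypoxia genes, which Sirt6 restrains in other cells, had a median of 0.03 over 14 genes; Pgk1 (phosphoglycerate kinase) was at 1.30 and 0.47 and Car9, a carbonic anhydrase induced by hypoxia, at -2.92 and -1.36. Members of both lists lay on either side of 0. Base excision repair genes had a median of -0.06 over 12 genes, and genes of strand break repair one of -0.37 over 10. The latter had medians of -0.81 on replicate 6 and -0.13 on replicate 11. Of these 10 genes, 6 were below 0 on both arrays (60.0%, against 31.5% of all named genes). Mre11a, the nuclease of the break sensor, was at -1.06 and -1.18. Targets of p53 had a median of -0.10 over 14 genes, and Cdkn1a (p21) was at 0.59 and 0.40. The other sirtuins Sirt2, Sirt3 and Sirt5 were at -0.92 and -0.58, -0.97 and 0.23, and -1.02 and 0.05. Interferon-induced genes had a median of -0.38, with Isg15, a ubiquitin-like protein, at -1.70 and -1.59 and Irf7 at 1.10 and 0.01.

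Growth, clock and lipid genes had few members far from 0 on both arrays. Igf2, the fetal growth factor, was at 1.21 on replicate 6 and 1.26 on replicate 11 (mean 1.24, SE 0.71, adjusted p = 0.843), close on both, within a list of 13 whose median was -0.01; Igf2r, which clears it, was at 1.12 and 0.65. Per2, a repressor of the circadian clock, was at 1.12 and 1.08 (mean 1.10, SE 0.34, adjusted p = 0.647), Nr1d1, another, at 2.27 and 0.53 and Hlf, a clock output factor, at -1.25 and -0.94; the clock median was 0.23 over 13 genes. Per2 and Igf2 were among the 22 genes at or over 1 on both arrays. Cholesterol synthesis had a median of -0.07 over 15 genes in spleen, against -1.20 and -1.88 on the 21-day livers. In spleen Cyp51, a sterol demethylase, was at -1.57 and -1.24 and Sqle, squalene epoxidase, at -3.26 and -0.80, but Mvd, a mevalonate pathway enzyme, at -1.25 and 2.46. Respiratory chain genes had a median of -1.17 on replicate 6 and -0.24 on replicate 11, and ribosomal protein genes -0.68 and -0.01, so both medians were lower on replicate 6. Of 33 respiratory chain genes, 23 were below 0 on both arrays (69.7%, against 31.5% of all named genes), 2 were at or under -1 on both, and the median of the means was -0.73. Of 54 ribosomal protein genes, 27 were below 0 on both, and the median was -0.31.

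Beside the lists, the genes farthest from 0 on both arrays were read off by their weaker array, a rule chosen after the values were seen. On the low side, after Eif2s3y and Isl1, came Odc1, ornithine decarboxylase, the first enzyme of polyamine synthesis, at -2.79 on replicate 6 and -2.72 on replicate 11 (mean -2.75, SE 0.83, adjusted p = 0.647). Cyp4a12a, a fatty acid hydroxylase that male mice make in kidney and liver, was at -3.0 and -2.61 (mean -2.81, SE 0.59, adjusted p = 0.479). Odc1 and Cyp4a12a had similar values on both arrays. Further genes among the 40 lowest were as follows. Car2 (carbonic anhydrase 2) was at -1.95 and -2.76, Kcnn4, the calcium-activated potassium channel of red cells, at -1.76 and -2.09, Abcg2, a porphyrin exporter, at -1.88 and -2.20 and Slc38a5, a glutamine transporter, at -1.85 and -2.42. Slbp, which binds histone mRNA in S phase, was at -1.92 and -1.99, Kif18b, a mitotic kinesin, at -2.25 and -1.92 and Spc25, of the kinetochore, at -1.74 and -1.95. These 7 were picked from the 40 lowest after their values were seen. All 7 were below -1 on 29-day replicate 2 and above 0 on 29-day replicate 1, as were 24 of the 40 in all. Others of the 40 were above 0 on both, such as Isl1 (0.26 and 0.48), Ctrb1 (0.49 and 0.91) and Try4 (0.42 and 0.95). The share of all named genes with the pattern of the 24 was not counted. Deposited ratios also spread more widely on 29-day replicate 2 than on replicate 1 (SD 0.657 against 0.326).

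On the high side the same rule gave Hrc first, the histidine-rich calcium-binding protein of the sarcoplasmic reticulum, at 3.08 on replicate 6 and 2.21 on replicate 11 (mean 2.64, SE 0.38, adjusted p = 0.154). It also had the smallest p of any gene on the high side, and lay between -0.22 and 0.36 on the 29-day spleens and 21-day livers. Lrg1, a leucine-rich glycoprotein made in inflammation, was at 3.37 and 1.60, and App, the amyloid precursor, at 2.47 and 1.27. Pdgfa, a platelet-derived growth factor, was at 1.22 and 1.23 and Klra2, a receptor of the Ly49 family, at 1.37 and 1.29. Close copies of Klra2 exist, which its probe can share. The muscle list, to which the gene Hrc does not belong, had medians of 0.57 and 0.22 over 10 genes, with Ckm (muscle creatine kinase) at 1.12 and 0.41 and Mylpf, a fast muscle light chain, at -1.38 and -1.10.

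By the smallest unadjusted p, the 10 genes on each side were as follows, none past the threshold. Lower were Isl1 (adjusted p = 0.245), Fgf23, the phosphate hormone, at -3.57 and -1.81 (mean -2.69, SE 0.44, adjusted p = 0.245), Sdr42e1, a dehydrogenase, at -4.69 and -1.86, and Il13, a cytokine of type 2 immunity, at -1.64 and -1.90. Nr2e1, a nuclear receptor of neural stem cells, was at -2.20 and -1.62 and Abca14, a transporter, at -3.55 and -1.22; Ctrb1, Cela3b, Cel and Cyp4a12a complete the list. Several of these genes are hardly used in spleen, and for such genes the ratio of a dim spot is unstable; without signal values this could not be checked. Higher, beside Hrc, were Tmprss3, a serine protease, at 1.92 and 1.01, Lama1, a laminin chain, at 2.56 and 1.08, Zfp14 at 1.02 and 7.10 and Nedd4l, a ubiquitin ligase, at 3.73 and 0.78. Hils1, a histone H1-like protein of sperm, was at 0.97 and 1.77, Prl (prolactin) at 1.99 and 0.99, Frs3 at 6.47 and 0.75, Ly6f at 2.50 and 0.89 and Scube3 at 4.46 and 0.68. Zfp14, Frs3 and Scube3 were far from 0 on 1 array and near 1 or below it on the other. Olfactory, vomeronasal and taste receptors, which spleen hardly expresses, had a median of 0.06 over 719 genes; 26 of them (3.62%) were at or under -1 on both arrays and 5 (0.695%) at or over 1, and the fit to the 2 arrays alone called 24 of them (3.34%) in either direction, against 196 of all named genes (1.67%).

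The test of 29-day against 21-day spleen called 0 of 23086 features (0%; 825 at an unadjusted p under 0.05). With the smallest p and a higher ratio at 29 days stood Ctrb1, Isl1 (difference 4.07, SE 0.71, adjusted p = 0.534), Cela3b, Fgf23, Try4 and Il13. With a lower ratio at 29 days stood Hrc (difference -2.45, SE 0.46, adjusted p = 0.724), Casp1, the inflammatory caspase, which was at 2.16 and 0.77 at 21 days and -0.42 and -0.60 at 29 days, Nedd4l, Ccl5, Ly6f and Lama1. The arrays of the ages did not overlap for these 12 genes, as the choice by p favours. How many of all features had such a gap was not counted, so this is no result about the 12. The test of 21-day spleen against 21-day liver called 0 of 21523 (0%; 1260 at an unadjusted p under 0.05). The alpha-2-macroglobulin relatives Mug1 and Mug2, which liver secretes, were at -0.07 and -0.90 and at 1.55 and 0.49 in spleen, against -2.92 and -2.99 and -2.25 and -2.12 in liver (adjusted p = 0.678 for Mug1 and 0.192 for Mug2). Rnf125, a ubiquitin ligase, was at 1.61 and 0.24 in spleen and -1.75 and -1.11 in liver, and Ces3b, a carboxylesterase, at -1.18 and -0.27 in spleen and -2.41 and -2.75 in liver. Lower in spleen than in liver stood Fgf23, Bcorl1, a corepressor, at -1.34 and -2.46 in spleen and -0.07 and 0.18 in liver, Ctrb1, Isl1, Abca14 and Rad51b, a recombination protein, at -1.87 and -0.25 in spleen and 1.17 and 0.93 in liver. Spleen 11 and liver 11 carry the same number, so these groups may share an animal.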

How the data were processed

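Knockout and wild type RNA were amplified and hybridised together on each 2-colour array, per the labels. The values deposited by the authors are log2 ratios at 38784 probes; their range of -8.08 to 9.75 fits base 2, and how they were normalized is not stated in any source used here. Platform annotation at GEO named 1 gene for 22204 probes and none for 16580, and every named probe was found by gene ID in the current gene table. Each array was centred on its median, and probes of a gene were averaged (4955 genes had several); unnamed probes were features of their own. The fit was made with limma 3.58.1 (R 4.3.3): a mean for each of 6 groups, with weights by group from arrayWeights and with eBayes (4.26 prior degrees of freedom), two-sided, with Benjamini-Hochberg adjustment at 0.05. A feature was tested where both 21-day spleen arrays had a value and at least 4 residual degrees of freedom remained (23136 features, 11745 of them named). Since no label says that the arrays had separate wild type pools, the spread behind the p-values is that between arrays and may be technical in part. The number of arrays limits the precision.

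The members, the 46 gene lists, the weighting and the rule for named genes were chosen with earlier results of these data known. The rule names Sirt6, the 10 genes of smallest p on each side with 1 sign on both arrays where fewer than 10 pass, up to 6 on each side for the 2 contrasts, and up to 4 members of largest and smallest mean change per list; further members are named to state values. Clone-named genes were left unnamed and receptors of smell and taste were counted as a family. The steps were tested on simulated data with known changes. Alternatives were other spreads, centring, scaling, normalization, probes, filters and array sets, a replicate block and leaving out each array.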

Additional observations from a re-analysis of the deposited data

Results flagged for a closer look

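Some results had 1 sign on both 21-day spleen arrays and the opposite sign on both arrays of another group; for the lists this difference was not tested, and for the genes the contrast passed the threshold in none. Against 29-day spleen, the median of the exocrine pancreas list differed by -2.11 (-1.22 and -1.74 against 0.18 and 1.08). The lymphoid stroma and chemokine list was higher by 0.37 and the immature B cell list by 0.25, both with values within 0.6 of 0. Of genes, the difference was -4.07 for Isl1, -2.63 for Ctrb1, -2.07 for Nr2e1, -1.94 for Il13 and -1.35 for Sirt6, and 2.59 for Nedd4l and 1.87 for Ly6f. The Sirt6 value on replicate 11 was -0.07, the mean of probes at -0.91 and 0.77, so its sign there is not settled.

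Against 21-day liver, the muscle list was higher by 0.57, the immature B cell list by 0.39, the lymphoid stroma list by 0.37 and the IGF axis list by 0.25, and the heat shock list differed by -0.60. Of genes, Zfp14 was higher in spleen by 4.20, Hrc by 2.81 and Lama1 by 2.16.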

How the results depend on the processing

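Calls depended on how the spread was estimated. For 21-day spleen the count was 0 with robust eBayes, without centring, per probe, with values on all 12 arrays, with a minimum change of 0.58 and in the fit to 21-day arrays, but 180 higher and 579 lower with equal weights, 157 and 289 in the 2 arrays alone, 1 and 5 after scaling and 1 and 2 after quantile normalization. Leaving out 1 array gave 0 to 224 higher and 0 to 170 lower, the highest without replicate 11; without replicate 6 they were 51 and 24. For 29-day minus 21-day spleen equal weights gave 9 higher and 1 lower, and leaving out 1 array 0 to 102 and 0 to 168. For 21-day spleen minus liver equal weights gave 9 and 5, scaling 1 and 1, and leaving out 1 array 0 to 196 and 0 to 95. An array left alone in its group is assumed to vary like its group did. Named genes at or under -1 on both arrays were 31 after scaling and 34 after quantile normalization, and those at or over 1 were 4 and 3. Leaving out both 29-day spleen arrays, chosen after seeing the data, changed no call.

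The replicate block called 0 in all 3 comparisons (block correlation 0.0444). Correlations of same-numbered deviations ran from -0.209 to 0.413 across tissues at 29 days, and that of number 11 at 21 days was -0.032, so not every pair was over 0.1 and the numbers were not taken as pairs. Yet Eif2s3y split by number at 29 days, with -0.13 to 0.37 on the 4 arrays numbered 1 and 3.35 to 5.08 on those numbered 2. Kdm5d was at -0.45 to 0.35 and 0.75 to 3.03, and Uty by probe 38634 at -0.105 to 0.05 and 0.72 to 1.70. Uty by probe 23381 did not split, at -0.17 to 0.75 and -0.003 to 0.27. These genes are Y-linked and no label states sex, so the split does not show that arrays of 1 number share an animal. This was not tested.

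List medians kept their direction in the red cell list (-1.77 without replicate 6, -0.87 without replicate 11, -0.78 scaled, -0.69 quantile normalized), the heme list (-0.96 scaled), the cell cycle list (-0.72 scaled), the replication list (-0.73 scaled) and the pancreas list (-1.12 scaled). That of iron handling turned to -0.06 after scaling, and that of interferon-induced genes to 0.06 without replicate 6. Of the repeated list medians 1038 stayed within the spread between the arrays and 42 moved beyond it. Of named gene values 1741 stayed on their side of the threshold and 118 passed it, and the cause was not tested. The table gives no signal over background, which leaves dim and bright spots with equal say.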
